A study of Homo sapiens with 5 samples.

Results

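Chemokine ligand genes were taken as the protein-coding RefSeq genes whose symbol begins with CCL, CXCL or XCL and a number, with CX3CL1 added. The rule found 45 genes among the RefSeq records of GRCh38.p14, the assembly of hg38. Of these, 43 lie on a primary chromosome and were scored, out of 19839 protein-coding genes on the autosomes and the X chromosome. The other two, CCL3L1 and CCL4L1, are placed on another scaffold of the assembly and were not scored. The data came from HT1376, an established human bladder carcinoma cell line, kept for 8 days either in the solvent DMSO or in CPI-0209, which inhibits EZH2, at 250 nM. Chromatin immunoprecipitation and sequencing (ChIP-seq) with antibodies against EZH2 and against histone H3 trimethylated at lysine 27 (H3K27me3) gave 4 groups of 1 library each: H3K27me3 DMSO, H3K27me3 CPI-0209, EZH2 DMSO and EZH2 CPI-0209. All groups are of the 1 cell line, and 1 input library listed with them was not used here. With 1 library per group no difference between conditions could be checked against replicates or tested.

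Chemokines are small secreted proteins that bind receptors on leukocytes and steer them into tissue. Their genes arose by duplication, and many still sit side by side: the neutrophil-attracting and the interferon-induced CXC chemokines on chromosome 4, and most CC chemokines on chromosome 17. H3K27me3, a mark of repressed chromatin, is placed by Polycomb repressive complex 2 through its methyltransferase EZH2. In several tumour types EZH2 and its mark have been linked to silencing of CXCL9 and CXCL10, the ligands that draw T cells through CXCR3. Tumour cells of an epithelial line are not the main source of most CC chemokines, which come largely from leukocytes and stroma.

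A gene end was called marked when at least 1 bp of the window from 2 kb below to 2 kb above it was covered by an interval of a library's list. Both ends of each gene record were scored, and overlapping intervals of a list were merged into domains. The lists are yes or no calls without read counts, so depth is unknown, and a missing call is not proof of an unmarked gene. Percents of genes carry exact 95% binomial limits. They cover counting error only, and neighbouring genes on 1 domain are not independent. In total the domains of H3K27me3 measured 315.1 Mb for DMSO against 113.8 Mb for CPI-0209, and those of EZH2 193.4 Mb against 226.3 Mb, so counts of members are read beside the same counts over all protein-coding genes. Of 9 epithelial and urothelial markers, 0 carried H3K27me3 at both ends in DMSO or in CPI-0209, while 2 (EPCAM and GATA3) carried it at 1 end in both conditions, and 8 carried EZH2 in each. H3K27me3 was called at 1 of 3 leukocyte markers in DMSO and 0 in CPI-0209, at 1 of 2 endothelial markers in both and at 0 of 2 mesenchymal markers in both. EZH2 was called at 1, 1 and 0 of these in DMSO, and at 2 of each list in CPI-0209. Over all protein-coding genes H3K27me3 was called at 1 or both ends of 31.4% in DMSO and 21.8% in CPI-0209, and EZH2 at 54.8% and 71.8%.

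The members whose starts the results turn on are shown first, as the 250 bases before the annotated start in the RefSeq table of GRCh38.p14, written 5′ to 3′ on the gene's own strand. Capitals mark CpG dinucleotides, which are set against the calls further on. CXCL1 (chr4:73869143-73869392, plus strand), CXCL2 (chr4:74099196-74099445, minus strand) and CXCL3 (chr4:74038690-74038939, minus strand) encode closely related neutrophil attractants, and are shown because their starts carry many CpGs and differ in their calls.
CXCL1: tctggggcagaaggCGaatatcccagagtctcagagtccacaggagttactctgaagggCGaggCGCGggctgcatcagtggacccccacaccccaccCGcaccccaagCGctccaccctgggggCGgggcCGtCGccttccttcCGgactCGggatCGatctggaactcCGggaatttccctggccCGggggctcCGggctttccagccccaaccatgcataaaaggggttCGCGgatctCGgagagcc
CXCL2: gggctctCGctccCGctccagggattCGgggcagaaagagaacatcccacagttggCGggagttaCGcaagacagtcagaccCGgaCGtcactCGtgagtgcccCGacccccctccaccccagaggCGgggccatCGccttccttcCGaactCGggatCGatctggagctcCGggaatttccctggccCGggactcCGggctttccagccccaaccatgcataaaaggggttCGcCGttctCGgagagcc
CXCL3: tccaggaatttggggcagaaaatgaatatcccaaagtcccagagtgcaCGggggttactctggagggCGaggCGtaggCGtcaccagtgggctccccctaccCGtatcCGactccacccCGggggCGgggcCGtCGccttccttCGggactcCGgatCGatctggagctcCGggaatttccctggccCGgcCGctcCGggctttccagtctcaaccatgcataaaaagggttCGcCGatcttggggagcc
CXCL9 (chr4:76007510-76007759), CXCL10 (chr4:76023498-76023747) and CXCL11 (chr4:76036071-76036320), all on the minus strand, are the interferon-induced ligands of CXCR3, and are shown because H3K27me3 was called beside them in DMSO with no EZH2 at their ends.
CXCL9: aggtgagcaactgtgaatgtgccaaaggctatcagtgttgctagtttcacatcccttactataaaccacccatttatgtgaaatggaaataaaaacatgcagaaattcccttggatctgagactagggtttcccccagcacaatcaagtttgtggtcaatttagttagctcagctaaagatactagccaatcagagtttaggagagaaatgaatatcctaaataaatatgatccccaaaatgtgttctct
CXCL10: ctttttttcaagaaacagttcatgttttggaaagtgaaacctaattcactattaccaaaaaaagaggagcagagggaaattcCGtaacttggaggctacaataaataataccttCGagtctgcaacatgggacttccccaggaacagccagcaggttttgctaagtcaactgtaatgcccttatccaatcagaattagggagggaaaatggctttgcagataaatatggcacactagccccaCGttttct
CXCL11: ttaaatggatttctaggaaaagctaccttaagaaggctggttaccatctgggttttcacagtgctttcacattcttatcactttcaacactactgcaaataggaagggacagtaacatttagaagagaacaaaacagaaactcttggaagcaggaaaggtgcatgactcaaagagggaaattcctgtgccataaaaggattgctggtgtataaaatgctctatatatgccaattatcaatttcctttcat
CXCL14 (chr5:135578992-135579241, minus strand) and CXCL12 (chr10:44385098-44385347, minus strand) are shown because their CpG-rich starts kept H3K27me3 in CPI-0209. CXCL14 is a chemokine of resting epithelia, and CXCL12 is the ligand of CXCR4.
CXCL14: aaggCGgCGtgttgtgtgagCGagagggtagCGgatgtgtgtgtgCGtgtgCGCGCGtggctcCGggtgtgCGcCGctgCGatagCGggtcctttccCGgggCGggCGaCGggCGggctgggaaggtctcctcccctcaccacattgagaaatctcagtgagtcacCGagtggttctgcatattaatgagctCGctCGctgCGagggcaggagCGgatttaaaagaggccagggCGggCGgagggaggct
CXCL12: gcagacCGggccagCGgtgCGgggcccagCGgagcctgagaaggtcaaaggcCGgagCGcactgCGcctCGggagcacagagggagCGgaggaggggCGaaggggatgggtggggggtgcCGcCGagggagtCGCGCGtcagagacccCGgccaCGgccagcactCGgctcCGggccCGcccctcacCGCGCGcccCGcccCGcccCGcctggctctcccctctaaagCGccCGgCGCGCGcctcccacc

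In DMSO cells 21 of the 43 chemokine genes (48.8%, limits 33.3 to 64.5) carried H3K27me3 at 1 or both ends, beside 31.4% of all protein-coding genes. In CPI-0209 cells 8 did (18.6%, 8.39 to 33.4), beside 21.8%. Marked at both ends were 17 members in DMSO and 5 in CPI-0209, beside 15.2% and 8.63% of all genes. Chemokine genes are short, with a median record of 3.23 kb against 24.5 kb over all genes, so their windows often overlap and both are easily met by 1 domain. Among the 5577 protein-coding records of up to 10 kb, a class that holds 34 of the 43 members, 30.5% were marked at 1 or both ends in DMSO and 23.6% at both. EZH2 was called at 10 members in DMSO (23.3%, 11.8 to 38.6) and at 19 in CPI-0209 (44.2%, 29.1 to 60.1), beside 54.8% and 71.8% of all genes and 49.7% and 64.2% of the short ones. At both ends it was called at 7 members in DMSO (16.3%) and 12 in CPI-0209 (27.9%), beside 17.5% and 26.0% of all genes and, in DMSO, 33.5% of short ones. Of the 33 members without EZH2 in DMSO 9 had it in CPI-0209 (27.3%, 13.3 to 45.5, background 43.4%), and 0 of 10 went the other way, which allows up to 30.8% (background 4.80%). At 1 or both ends, the share of members with H3K27me3 in DMSO thus lay above the background of all genes and the share with EZH2 below it in both conditions. At both ends, the EZH2 shares were near that background of all genes, while in DMSO the share lay below that of short records (16.3% against 33.5%).

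**Figure D1:**
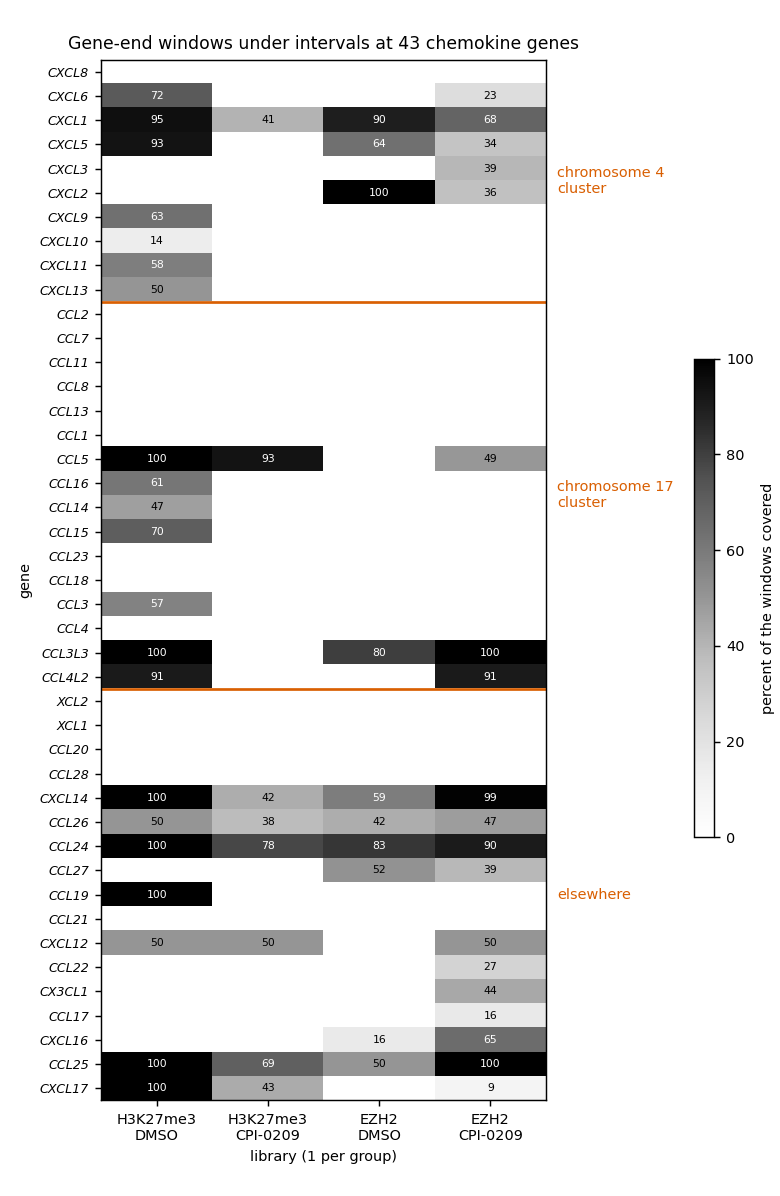
Percent of the 2 kb windows at both ends of each gene record (overlapping windows merged) that lay under intervals, for the 43 chemokine genes in the 4 libraries; shade and number give the percent, and blank cells are 0. The H3K27me3 DMSO column is filled at 21 genes and the H3K27me3 CPI-0209 column at 8, while 15 rows are blank in every library.

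Of the 21 members with H3K27me3 in DMSO, 13 (61.9%, 38.4 to 81.9) had neither end marked in CPI-0209, here called lost, and 8 were kept. Over all genes 1997 of 6226 were lost, or 32.1%, and 29.4% among short records, so the share of lost members lay above both. Of the 22 members without the mark in DMSO 0 had it in CPI-0209, which allows a share of up to 15.4% (background 0.646%). Without EZH2 in DMSO were 14 of the 21 (66.7%, 43 to 85.4), against 25.5% of all genes marked in DMSO and 26.3% of short ones. Among these 14, 11 were lost (78.6%, 49.2 to 95.3), close to the 75.7% lost among all marked genes without EZH2. The kept ones included CCL5 and CXCL17, whose nearest EZH2 domains in DMSO lay 2.04 kb and 2.28 kb away. With a 5 kb window both had EZH2 in DMSO, so this split depends on the window. Among the 7 with EZH2 in DMSO, 2 were lost (28.6%, 3.67 to 71.0), and the background was 17.1%. The background lay within the limits in both classes, but with 14 and 7 members these limits are too wide to show a match. The classes were present in other proportions than over all genes, and the part of this in the share lost was not tested. In CPI-0209 all 8 kept members carried EZH2 (background 98.6%), and 4 of the 13 lost members did (30.8%, 9.09 to 61.4, background 64.3%). At CXCL17 this EZH2 call was at the rim of 1 window, over 723 bp, from a domain 1.28 kb outside the gene. It was not called with a 1 kb window.

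The members fell into a few kinds by their calls in the 4 libraries. H3K27me3 in DMSO with no EZH2 in either condition was called at 9 members (20.9%, 10.0 to 36.0), against 3.44% of all genes and 4.03% of short ones. These were CXCL9, CXCL10, CXCL11, CXCL13, CCL14, CCL15, CCL16, CCL3 and CCL19, and none of the 9 had H3K27me3 at an end in CPI-0209. The absence of EZH2 holds for the 2 kb windows, and with a 5 kb window CXCL9 had EZH2 in CPI-0209. A second kind, CXCL5, CXCL6, CCL3L3 and CCL4L2, was also without H3K27me3 in CPI-0209 but carried EZH2 there. The 8 kept members were CXCL1, CXCL12, CXCL14, CXCL17, CCL5, CCL24, CCL25 and CCL26. EZH2 without H3K27me3 in either condition was called at 7 members in CPI-0209 (CXCL2, CXCL3, CXCL16, CCL17, CCL22, CCL27 and CX3CL1), 16.3% against a background of 43.8%. The remaining 15 members (34.9%, against 22.1% of all genes and 30.0% of short ones) had no interval of the 4 lists at either end.

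The chromosome 4 cluster, defined by gaps of up to 3 Mb between members, holds 10 members from CXCL8 to CXCL13. H3K27me3 was called at 7 of the 10 in DMSO and at 1, CXCL1, in CPI-0209, and EZH2 at 3 and 5. The chromosome 17 cluster holds 16 members from CCL2 to CCL4L2. H3K27me3 was called at 7 of these 16 in DMSO and at 1, CCL5, in CPI-0209, and EZH2 at 1 and 3. In each cluster 6 of the 7 members marked in DMSO were lost, and the marked members touched 6 DMSO domains on chromosome 4 and 7 on chromosome 17. Over all genes H3K27me3 was called at 31.4% in DMSO and 21.8% in CPI-0209, EZH2 at 54.8% and 71.8%, and 32.1% of the marked genes were lost. The share of chromosome 17 members marked in DMSO, 43.8%, was not far from that background. Among the 17 members elsewhere, 7 were marked in DMSO and 1 of the 7, CCL19, was lost. Because members share domains, the 12 of 14 lost in the clusters and the 1 of 7 elsewhere were not tested against each other. EZH2 in DMSO was not called at the ends of 11 of the 14 marked members in the clusters and of 3 of the 7 elsewhere, beside 25.5% of all marked genes.

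Coverage was also measured over the whole span of each cluster. From 2 kb below CXCL8 to 2 kb above CXCL13 the chromosome 4 cluster measures 3875 kb, of which H3K27me3 covered 5.99% in DMSO and 0.624% in CPI-0209. The chromosome 17 cluster measures 1962 kb, of which it covered 17.5% and 3.85%. EZH2 covered 6.08% and then 3.06% on chromosome 4, and 7.44% and then 9.50% on chromosome 17. The covered share under EZH2 was thus lower in CPI-0209 than in DMSO on chromosome 4, though more members were called there. Within the span of chromosome 4 lay 32 EZH2 domains in DMSO and 39 in CPI-0209. Most of each span is sequence between members, with gaps of 1902 kb and 1476 kb on chromosome 4 and 1508 kb on chromosome 17. From CXCL8 to CXCL2 EZH2 covered 7.50% in DMSO and 5.02% in CPI-0209. From CXCL9 to CXCL11 it was not called in DMSO and covered 4.12% in CPI-0209. The same shares over the whole genome were not computed.

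The first block of chromosome 4 carries the ligands of CXCR1 and CXCR2, which attract neutrophils. Over its 362.6 kb, H3K27me3 covered 15.1% in DMSO and 1.43% in CPI-0209. CXCL8 (interleukin 8, chr4:73740569-73743716) had no interval of any list at either end, and its nearest H3K27me3 domain in DMSO lay 92.7 kb away. At CXCL6 (chr4:73836678-73838760) a 5.4 kb H3K27me3 domain covered the whole gene in DMSO, and in CPI-0209 there was no H3K27me3 but a 1.4 kb EZH2 domain. CXCL1 (chr4:73869393-73871308) lay at the upper edge of a 20.8 kb H3K27me3 domain in DMSO that also covers PF4V1, a platelet factor variant. In CPI-0209 the H3K27me3 left of that domain was 2.4 kb (chr4:73868001-73870400), over the start of CXCL1, within an EZH2 domain of 4 kb. The stretch that kept the mark lies over the CpG-rich start shown above. CXCL5 (chr4:73995642-73998677) had a 7.8 kb H3K27me3 domain in DMSO alone and EZH2 domains of 4.8 kb in DMSO against 2.4 kb in CPI-0209.

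CXCL2 and CXCL3 differed from CXCL1 in carrying no H3K27me3 in either condition. At CXCL2 (chr4:74097040-74099195) an EZH2 domain of 9.8 kb covered both windows in DMSO, and one of 2.2 kb covered 35.7% of them in CPI-0209. At CXCL3 (chr4:74036589-74038689) EZH2 was called in CPI-0209 alone, as a 2.4 kb domain over its start. Their nearest H3K27me3 domains in DMSO were 96.8 kb and 36.4 kb away. The upstream sequences of CXCL1 and CXCL3 were identical at 81.4% of alignment columns, gaps included. Those of CXCL1 and CXCL2 were identical at 70.1%, and those of CXCL2 and CXCL3 at 73.4%. On this measure the pairs among CXCL9, CXCL10 and CXCL11 gave 49.7% to 54.9%. CXCL1 thus shared much of its upstream sequence with CXCL2 and CXCL3 and differed from both in its H3K27me3 calls.

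The second block of chromosome 4 holds CXCL9 (chr4:76001275-76007509), CXCL10 (chr4:76021118-76023497) and CXCL11 (chr4:76033682-76036070). H3K27me3 lay over 55.2% of the 38.8 kb in DMSO and over none of it in CPI-0209. EZH2 was not called in DMSO, and in CPI-0209 it was called over 1.6 kb between CXCL9 and CXCL10. That stretch lay 2.89 kb from CXCL9, within the DMSO H3K27me3 domain of that gene. One H3K27me3 domain (chr4:76002201-76012800, 10.6 kb) covered the start of CXCL9 and 85.1% of its body. A second (chr4:76024601-76035400, 10.8 kb) covered 72.0% of the body of CXCL11. It reached the window of CXCL10 by 897 bp and none of the body of that gene. CXCL10 is therefore a call at the rim of the window, and it was not called with a 1 kb window. At its start CXCL11 was covered over 1331 bp of the window of 4001 bp, CXCL9 over all of it and CXCL10 over 897 bp. At CXCL13, the B cell attractant, a 15 kb domain in DMSO lay at the far end of the 100.1 kb gene, and the window at its start was free of intervals in all 4 libraries.

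**Figure D2:**
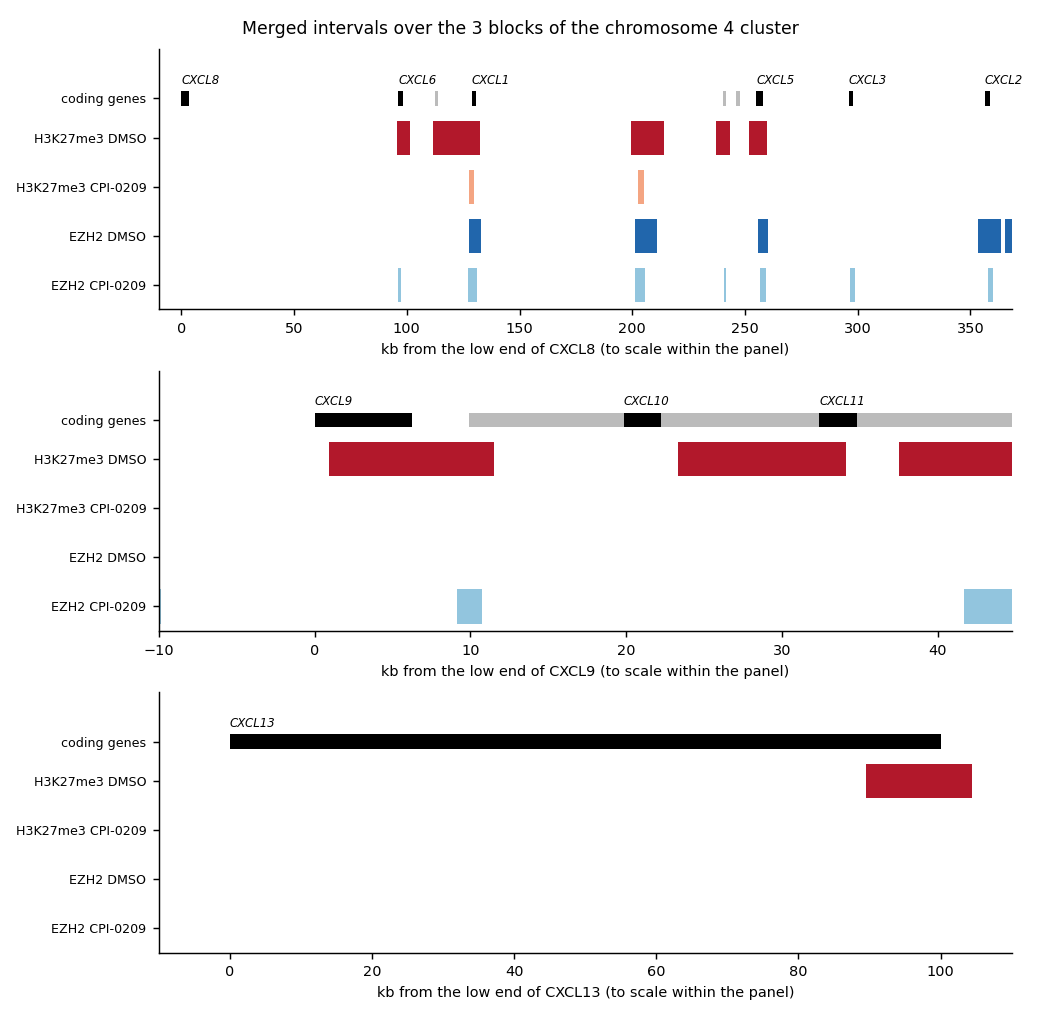
Merged intervals of the 4 libraries over the 3 blocks of the chromosome 4 cluster with 10 kb of flank, in kb from the low end of the first member; black bars are chemokine members and grey bars other protein-coding genes. In the lower 2 panels H3K27me3 was called in DMSO alone, and in the first panel the H3K27me3 of CPI-0209 stands at 2 places, 1 of them the 2.4 kb domain at CXCL1.

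On chromosome 17 the 2 blocks stood apart. The first block, of 111.9 kb, holds CCL2, CCL7, CCL8 and CCL13, which attract monocytes, CCL11 (eotaxin), which attracts eosinophils, and CCL1, a ligand of CCR8. No interval of the 4 lists lay anywhere in it. The nearest H3K27me3 domain in DMSO was 58.8 kb from CCL1 and 164.8 kb from CCL2. The second block, of 345.4 kb from CCL5 to CCL4L2, had H3K27me3 over 42.1% in DMSO and over 5.56% in CPI-0209, in 15 and 4 domains. EZH2 covered 7.53% and then 18.3% of it, in 4 and 11 domains. In this block the covered share of EZH2 was higher in CPI-0209 while that of H3K27me3 was lower.

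CCL5 (chr17:35871491-35880360), a T cell and monocyte attractant, was the kept member of this cluster. In DMSO a 29.8 kb H3K27me3 domain covered the gene whole. In CPI-0209 domains of 4.2 kb and 6.8 kb were called within it, one at each end of the gene, and they covered 93.1% of the windows and 52.6% of the body. EZH2 was not called within 2 kb of CCL5 in DMSO, where the nearest domain lay 2.04 kb away, and in CPI-0209 a 6.2 kb EZH2 domain covered its high end. The EZH2 call in DMSO thus fell just outside the window, as it did at CXCL17, at 2.28 kb.

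CCL16, CCL14 and CCL15, which are found in plasma and are ligands of CCR1, carried H3K27me3 in DMSO alone. A single domain of 7.2 kb touched CCL16 and CCL14, reaching the high end of CCL14 by 72 bp, and a 5.6 kb domain covered CCL15. CCL3 (chr17:36088256-36090143), also a ligand of CCR1, had 2 domains of 2.6 kb each, and its neighbour CCL4 none, at 9.83 kb from the nearest. CCL23 and CCL18 were free of intervals as well, although H3K27me3 in DMSO lay 9.86 kb and 10.4 kb away. EZH2 was not called at any of these 7 genes. Marked and unmarked genes were thus interspersed along the block.

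CCL3L3 (chr17:36194869-36196758) and CCL4L2 (chr17:36211063-36212873) are near-identical copies of CCL3 and CCL4, and reads from copies, CCL3L1 and CCL4L1 included, may be assigned to any of them. The sources used here do not say how such reads were treated. With this limit, CCL3L3 lay in a 25.2 kb H3K27me3 domain in DMSO, of which 7.8 kb was called again in CPI-0209, at 6.67 kb from the gene. EZH2 domains at CCL3L3 measured 5.6 kb in DMSO against 13.6 kb in CPI-0209. CCL4L2 had a 7.4 kb H3K27me3 domain in DMSO and a 6 kb EZH2 domain in CPI-0209. The upstream sequences of CCL3 and CCL3L3 were identical at 91.4% of alignment columns, gaps included, yet EZH2 was called at CCL3L3 and not at CCL3. XCL1 and XCL2 on chromosome 1, another near-identical pair and both ligands of XCR1, had no interval. Leaving out these 6 genes gave 4 of 12 members marked in DMSO on chromosome 17 in place of 7 of 16, and 10 of 18 lost over the whole family.

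**Figure D3:**
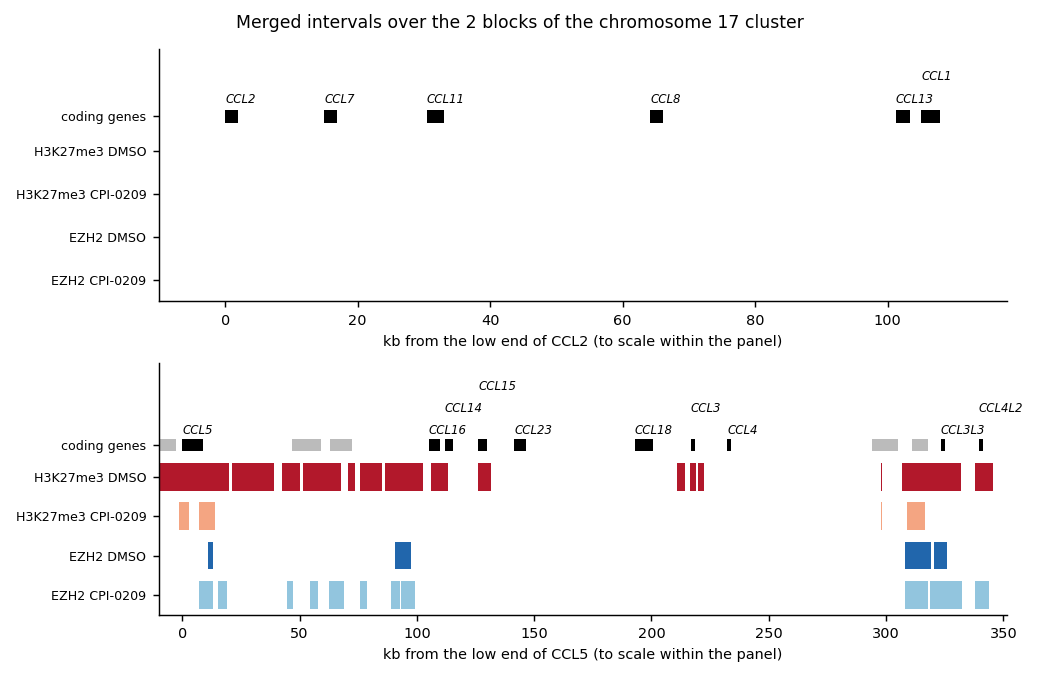
Merged intervals of the 4 libraries over the 2 blocks of the chromosome 17 cluster with 10 kb of flank, in kb from the low end of the first member; black bars are chemokine members and grey bars other protein-coding genes. The upper panel is empty, and in the lower one H3K27me3 covered 42.1% of the block in DMSO and 5.56% in CPI-0209.

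Outside the 2 clusters the kept members had wide domains in DMSO, with CXCL12 as the exception. CCL24 and CCL26, the other eotaxins (chr7:75810825-75823372 and chr7:75769524-75791597), shared 1 H3K27me3 domain of 68 kb in DMSO, of which 46.4 kb was called in CPI-0209. EZH2 was called at both genes in both conditions. At CCL24 it lay in 1 domain of 27.4 kb in DMSO and in 2, of 10.4 kb and 13.2 kb, in CPI-0209. Of the 27.4 kb, 25.6 kb was under EZH2 in CPI-0209 as well. EZH2 covered 82.8% of the windows of CCL24 in DMSO and 90.3% in CPI-0209. CXCL14 (chr5:135570679-135578991) lay in a 65.8 kb H3K27me3 domain in DMSO that also covers NEUROG1, a neurogenic transcription factor. At the ends of CXCL14 a domain of 3.4 kb over the start was left in CPI-0209, and 19.2 kb of the DMSO domain was called again in all. Its EZH2 domains reached 9 kb in DMSO against 10.2 kb in CPI-0209. At CCL25, which guides T cells to the gut through CCR9, the widest H3K27me3 domain measured 41.4 kb in DMSO against 4.6 kb in CPI-0209, and 28.4 kb of the DMSO domain was called again in pieces. EZH2 was called at its high end in DMSO and at both ends in CPI-0209.

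CXCL17, a mucosal chemokine, had H3K27me3 domains of 35.8 kb and 20.6 kb at its ends in DMSO. In CPI-0209 these ends met a domain of 29.8 kb, which extends over LIPE, and one of 3 kb beyond its start, which covered 946 bp of the start window. Of the body of CXCL17 3.57% lay under H3K27me3 in CPI-0209, against 79.5% in DMSO. CXCL12 (chr10:44370165-44385097) had a 6 kb H3K27me3 domain over its start in DMSO and 4.6 kb of it in CPI-0209. EZH2 there was called in CPI-0209 alone, over 5.2 kb, with the nearest DMSO domain 363.4 kb away. CXCL12 was thus a narrow domain that was kept without a call of EZH2 in DMSO. CCL19, which guides T cells and dendritic cells through CCR7, was lost: its 19.6 kb DMSO domain had no H3K27me3 in CPI-0209. No EZH2 was called at the ends of the gene, though 5.8 kb of that domain lay under EZH2 in CPI-0209.

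Other members outside the clusters lacked H3K27me3 at their ends in both conditions. CCL17, CCL22 and CX3CL1 lie together on chromosome 16. CCL17 and CCL22 attract T cells through CCR4, and CX3CL1 is the membrane-bound fractalkine. EZH2 was not called at them in DMSO, and in CPI-0209 an 8 kb domain joined CCL22 and CX3CL1 and one of 1.8 kb lay at CCL17. CCL27, a skin chemokine, had an EZH2 domain of 4.2 kb in DMSO that covered 59.5% of its body. In CPI-0209 a domain of 4.4 kb reached its windows but lay 144 bp outside the gene. That call was absent with 50% coverage of a window. At CXCL16, a membrane-bound ligand of CXCR6, EZH2 was called at 1 end in DMSO, from a 2.2 kb domain 733 bp outside the gene. In CPI-0209 it was called at both ends, where the widest domain measured 17.6 kb. CCL21, the second ligand of CCR7, CCL22 and CXCL16 were the unmarked members nearest to H3K27me3 in DMSO, at 3 kb, 2.31 kb and 3.27 kb, just outside the 2 kb window, whereas CCL14 at 1 end, with 72 bp, was just inside. CCL20, a ligand of CCR6, and CCL28, a mucosal chemokine, had no interval of any list at their ends.

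Domain widths followed the same division. The 8 kept members had a median widest DMSO domain of 38.6 kb (6 to 68 kb), and the 13 lost members one of 7.8 kb (2.6 to 25.2 kb). Over all protein-coding genes the medians were 23.4 kb for 4229 kept genes and 9.8 kb for 1997 lost ones. In CPI-0209 the kept members had a median of 5.7 kb (2.4 to 29.8 kb), against 6.4 kb over all kept genes. The widest domain was narrower than in DMSO at 8 of 8 members, of which CCL24 and CCL26 shared a DMSO domain. The median over all kept genes was also lower, at 6.4 kb in CPI-0209 against 23.4 kb in DMSO. The share of all kept genes with a narrower domain was not computed, so whether the members differ in this was not tested. The ranges of kept and lost members overlapped, since CXCL12 and CXCL1 were kept at 6 kb and 20.8 kb while CCL3L3 was lost at 25.2 kb.

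**Figure D4:**
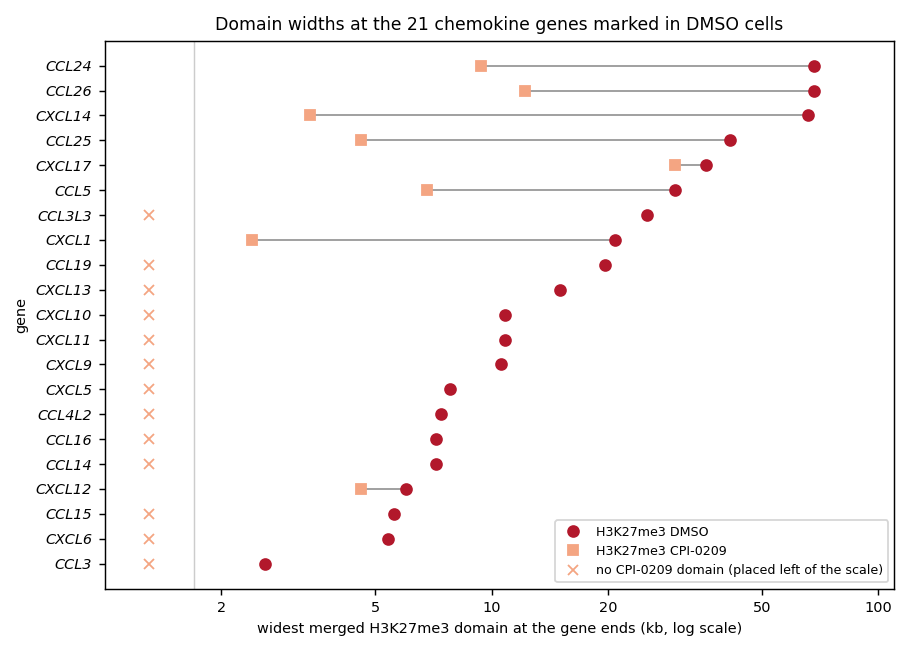
Width in kb, on a log axis, of the widest merged H3K27me3 domain touching the end windows of each of the 21 chemokine genes marked in DMSO, in DMSO (circles) and CPI-0209 (squares); crosses left of the grey line are genes with no CPI-0209 domain. Of the 8 kept genes 6 lie right of every lost gene in DMSO, CCL24 and CCL26 among them with 1 shared domain, and each square lies left of its circle.

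CpG content was compared with the calls at the annotated start, a measure that did not enter the choice of the genes. The RefSeq promoter table matched 31 of the 43 members. XCL1, CCL21, CX3CL1, CCL17, CXCL16, CCL2, CCL11, CCL5, CCL16, CCL14, CCL4 and CCL4L2 had no entry. Over the 250 bases upstream, the ratio of observed to expected CpG reached 0.6 at 5 of the 31 members (16.1%), against 63.4% of 15812 protein-coding promoters. The 5 were CXCL14 (1.05), CXCL12 (0.815), CXCL2 (0.778), CXCL3 (0.771) and CXCL1 (0.671), and CXCL9 and CXCL11 held no CpG in the sequences shown above. EZH2 in CPI-0209 lay in the start window of 5 of these 5 and of 7 of the 26 others (26.9%), against 85.5% and 41.5% of all promoters of the same kinds. In DMSO it lay at 3 of 5 and 5 of 26 (19.2%), against 62.7% and 29.5%. H3K27me3 in DMSO was called at 3 of the 5 CpG-rich starts, and in CPI-0209 at the same 3, CXCL1, CXCL12 and CXCL14 (backgrounds 21.3% and 16.6%). Of the 26 CpG-poor starts 13 were marked in DMSO (background 29.7%) and 4 in CPI-0209 (15.4%, background 18.0%). The 4 were CCL24, CCL25, CCL26 and CXCL17. Starts of neighbouring genes share domains, and these counts are a description.

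**Figure D5:**
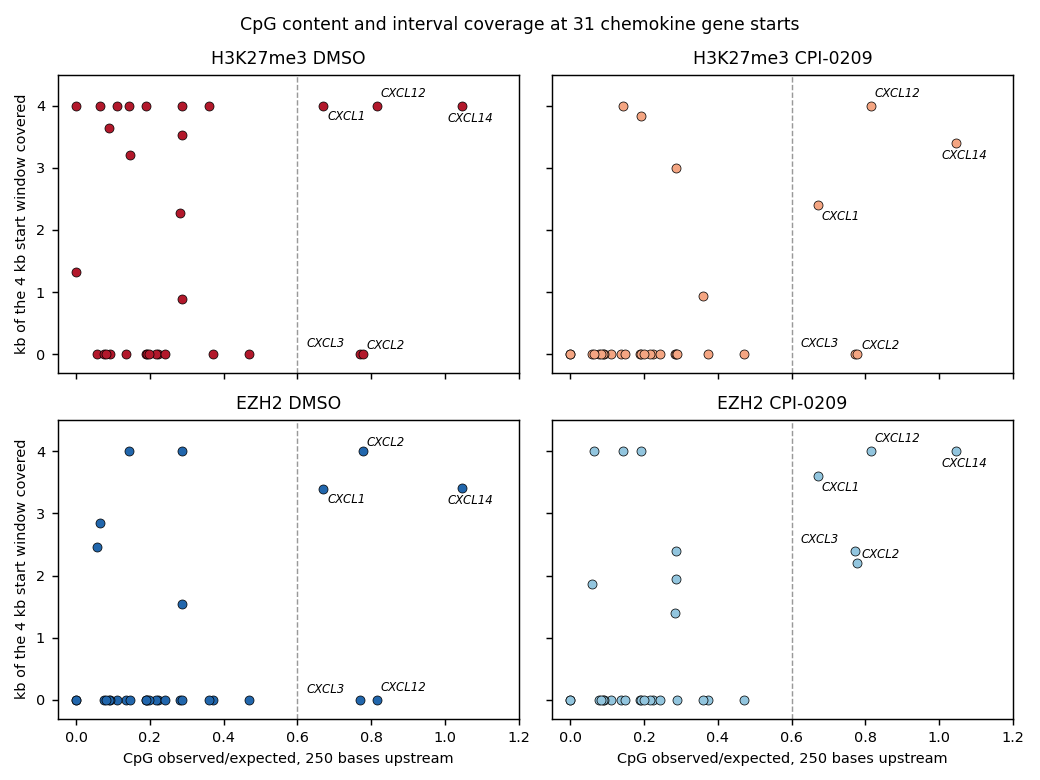
Observed over expected CpG in the 250 bases upstream (horizontal) against kb of the window from 2 kb below to 2 kb above the start that lay under intervals (vertical), for 31 chemokine genes, 1 panel per library; the dashed line marks 0.6. All 5 genes right of the line are above 0 in the EZH2 CPI-0209 panel, and CXCL2 and CXCL3 are at 0 in both H3K27me3 panels.

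The neutrophil attractants CXCL1, CXCL2, CXCL3, CXCL5 and CXCL6 were compared for letters they share upstream. Their longest common run in these 250 bases was GGGAATTTCCC, 11 letters that hold a textbook binding site of NF-kB, the factor that induces these genes in inflammation. It began 78 bases before the start in CXCL2, 79 in CXCL1 and CXCL3, 90 in CXCL6 and 91 in CXCL5, and can be read in the CXCL1, CXCL2 and CXCL3 sequences above. The run was chosen from these 5 genes, and CXCL8 of the same block was not among those compared. Counting both strands, it occurred in none of the other 26 members of the table. Over all promoters of the table it occurred in 0.101% (16 of 15812), the 5 genes it was chosen from included. Only these exact letters were searched. Other forms of an NF-kB site were not counted, so their absence from the other members is not shown. The 5 genes carry these letters at nearly one place, while their H3K27me3 calls ran from kept (CXCL1) through lost (CXCL5 and CXCL6) to not called in either condition (CXCL2 and CXCL3). A match describes the letters and not a bound site.

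Genes of the same pathway were scored in the same way. Of the 3 platelet chemokines of the chromosome 4 block, which carry older symbols, PF4 and PF4V1 had H3K27me3 at both ends in DMSO, with domains of 6.4 kb and 20.8 kb, and at neither in CPI-0209, and PPBP had none. Among 22 chemokine receptors, 10 carried H3K27me3 at 1 or both ends in DMSO, 7 of them at both, and 6 of the 10 were kept and 4 lost. CCR6, CXCR1, CXCR3 and CXCR4 had H3K27me3 and EZH2 at each end with DMSO and with CPI-0209. At CXCR3, the receptor of CXCL9, CXCL10 and CXCL11, the domain measured 24.8 kb in DMSO against 5 kb in CPI-0209, so receptor and ligands differed in the call. CXCR2 was marked at both ends in DMSO and at 1 in CPI-0209, without EZH2. CCR9 and ACKR1, with domains of 31 kb and 7.6 kb in DMSO and no EZH2, had none in CPI-0209. Over all genes 31.4% were marked at 1 or both ends in DMSO, 15.2% at both, and 32.1% of the marked genes were lost, so the share of receptors lost (4 of 10) was near the background.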

How the data were processed

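ChIP-seq interval lists of 4 libraries (1 each for EZH2 and H3K27me3 in DMSO and CPI-0209) were used; the input was not used here. Each sample's label gives 8 days of treatment, while the labels' protocol names day 4 as well, which was not analysed here. The submitters' processing notes list the tools BWA and SICER and the build hg38 but give no settings, and which control entered the calling was not stated. Per the file headers, the deposited lists hold chromosome, start and end alone, with no score or count. Starts were read as counting from 0, and every edge lies on a 200 bp grid. Overlapping intervals of a list were merged.

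Genes came from the RefSeq table of GRCh38.p14. Records after the primary chromosomes (696) belong to other scaffolds and were left out. Windows of 2 kb either side of both record ends were scored, with 1 bp as the minimum overlap. Clusters join members with gaps of up to 3 Mb and blocks with gaps of up to 500 kb. All members may be named, with receptors marked at both ends in DMSO and the platelet genes. EPCAM, GATA3 and neighbours on shared domains were named after their values were seen. A list of signalling genes is not reported here. The members and lists were chosen with earlier results of these data known, so the counts are descriptions. Interval arithmetic was tested on simulated data. Sequence identity is from global alignments over all alignment columns. Python 3.11.15, numpy 2.4.6, scipy 1.17.1, Biopython 1.88 and matplotlib 3.10.9 were used. The alternatives were other windows (1 kb and 5 kb), 50% coverage of a window, stretches under 2 intervals, intervals of 2 kb or wider, the annotated start alone, and, chosen after seeing the data, leaving out near-identical copies.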

Additional observations from a re-analysis of the deposited data

How the results depend on the processing

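Across 9 counts and 7 alternatives, 51 of 63 values were within 1.5 times the reported count and 12 were not. Counts and not shares were compared, although the number of genes scored differs between alternatives. Of the 12, 8 came from counting stretches under 2 overlapping intervals alone, which removes every stretch under 1 interval. Under that alternative H3K27me3 was called at 13 members in DMSO and 0 in CPI-0209, at 3 and 0 on chromosome 4 and at 4 and 0 on chromosome 17, and EZH2 was called at 1 member in DMSO and 8 in CPI-0209. The lost members were then 13 of 13 in place of 13 of 21, the same count but not the same genes. CXCL6, CXCL9, CXCL10, CXCL13, CCL19, CCL15, CCL3 and CCL4L2, 8 of the reported lost members, were no longer called in DMSO. Their H3K27me3 calls thus rest on stretches under 1 interval. The 8 members reported as kept stayed called in DMSO, were not called in CPI-0209, and so counted as lost. With the annotated start alone, which could be scored at 31 members and at 9 on chromosome 17, EZH2 in CPI-0209 was called at 12, and on chromosome 17 H3K27me3 at 3 in DMSO and 0 in CPI-0209 (CCL5 has no entry). Without near-identical copies, H3K27me3 in DMSO was called at 4 of 12 members on chromosome 17. The lost members numbered 9 to 15 under the 7 alternatives, of 13 to 24 marked in DMSO. No paired analysis was possible because each group has 1 library. Depth is unknown and its part in the calls was not tested.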

Other observations

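Non-coding records of the family gave a further pattern on chromosome 4. CXCL1P1, a pseudogene between CXCL1 and CXCL5 (chr4:73943995-73944493), carried H3K27me3 and EZH2 at both ends in both conditions. It was the second place in the block of the neutrophil attractants where H3K27me3 was called in CPI-0209, beside the start of CXCL1. On chromosome 17 the read-through record CCL15-CCL14 had both ends under H3K27me3 in DMSO and neither in CPI-0209, without EZH2, like the 2 coding genes it overlaps. CCL3-AS1, whose record overlaps CCL3, carried H3K27me3 at 1 end in DMSO and at none in CPI-0209. The protein-coding neighbours on the members' DMSO domains included ART3 beside CXCL9, CXCL10 and CXCL11, HEATR9 beside CCL5, PHF24 beside CCL19 and FBN3 beside CCL25.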
